A study of Mus musculus with 8 samples.

Results

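The genes of the Kv1 potassium channels were followed in nuclei of inhibitory neurons from mouse cortex. The group held 9 genes, taken by symbol: the alpha subunit genes Kcna1 to Kcna6 and the beta subunit genes Kcnab1, Kcnab2 and Kcnab3. They were 9 of the 55341 gene symbols counted in each library. Nuclear RNA was measured in 8 libraries, each from the cortex of 1 mouse. In the PTU group (n = 4, mice 9 to 12) juvenile mice were hypothyroid because their mothers had been given propylthiouracil, a blocker of thyroid hormone synthesis, during pregnancy. In the PTU+TH group (n = 4, mice 13 to 16) hypothyroid mice received thyroid hormone by intraperitoneal injection 24 h before the brain was taken. All mice carried a Cre-dependent reporter that labels the nuclei of GABAergic neurons, and these nuclei were sorted. The Cre driver, the strain, the exact age and the hormone dose were not given in the sources used here, and no euthyroid group is part of the series.

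Kv1 channels are voltage-gated potassium channels that open at low depolarisation and limit how readily a neuron fires. A channel is a tetramer of alpha subunits, often of mixed kinds, and beta subunits bind on its cytoplasmic side, where they influence inactivation and traffic to the membrane. In cortical interneurons, Kv1.1 and Kv1.2, the products of Kcna1 and Kcna2, are known from the axon initial segment and other parts of the axon, and in fast-spiking parvalbumin cells a Kv1 current helps set the firing threshold. The comparison asks which of these transcripts differ a day after the hormone is given back.

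The alpha genes encode near relatives, which matters for counting reads, and the stretch that codes for the potassium selectivity filter shows how alike they are. It was found in each coding sequence of the GENCODE transcripts with the potassium channel signature motif, 21 bases in which the last base of each codon was left free, searched on the coding strand, which matched once in each of the 6 alpha genes. The motif is shown with 24 bases before it and 15 after it, and capitals mark bases that differ from Kcna1.
Kcna1: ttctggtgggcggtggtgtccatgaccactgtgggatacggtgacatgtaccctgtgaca
Kcna2: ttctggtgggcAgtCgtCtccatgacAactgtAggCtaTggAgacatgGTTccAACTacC
Kcna3: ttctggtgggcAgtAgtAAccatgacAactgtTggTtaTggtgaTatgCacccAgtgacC
Kcna4: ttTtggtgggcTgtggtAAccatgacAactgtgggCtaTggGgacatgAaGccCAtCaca
Kcna5: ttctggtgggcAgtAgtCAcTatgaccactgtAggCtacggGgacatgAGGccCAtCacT
Kcna6: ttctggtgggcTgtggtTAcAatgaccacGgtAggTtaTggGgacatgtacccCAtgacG
Over these 60 bases the other 5 genes differed from Kcna1 at 12 to 16 positions, and at 3 to 5 positions within the 21 bases of the motif. Over the whole coding sequence, identity between pairs of alpha genes ran from 70.1% to 77.3% of aligned bases (15 pairs). The longest run of identical bases lay between 17 and 31 in all pairs except Kcna5 with Kcna6, which share 91 bases in a row. That run spans coding bases 1124 to 1214 of Kcna5 and 983 to 1073 of Kcna6, and a read inside it cannot be placed in one of the genes.
Kcna5 and Kcna6: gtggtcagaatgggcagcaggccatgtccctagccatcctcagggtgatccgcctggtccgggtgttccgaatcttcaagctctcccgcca
The beta genes were alike to a similar degree, with 67.8% to 76.7% identity and runs of at most 26 bases (3 pairs).

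The genes also differ in how much of their body could be counted. In the files, all 1325 protein-coding genes that lie wholly inside other genes were listed at 0 in the 8 libraries, including the 683 that share no exon base with another gene's exon, against 21.5% of 11727 genes that share no base with any other. Bases shared with another gene therefore appear not to have been counted, on either strand. Positions are on build GRCm38. Kcna5 (chromosome 6, 126532551 to 126535412), Kcna1 (126640397 to 126646384) and Kcna6 (126708329 to 126740674) stand next to each other on the minus strand, with gaps of 105 and 61.9 kb. Kcna3 (chromosome 3, 107036169 to 107038070) and Kcna2 (107101146 to 107115005) lie 63.1 kb apart on the plus strand, and Kcna4 is at chromosome 2, 107290639 to 107298502. Each of the 6 alpha genes has its coding sequence in 1 exon. Kcnab1 (chromosome 3, 65109384 to 65378223), Kcnab2 (chromosome 4, 152390742 to 152477871) and Kcnab3 (chromosome 11, 69326258 to 69333042) have 14, 16 and 14 coding exons.

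Kcna1, Kcna2, Kcna4 and Kcna5 overlap no other annotated gene. Kcnab2 is 94.1% free of other genes and its coding bases are all outside them. Kcnab3 is 66.1% free, because the antisense gene Kcnab3os lies inside it, and 422 of its 1212 coding bases lie outside that gene, so its counts are uncertain. Kcnab1 is 18.9% free, with 730 of its 1203 coding bases outside other genes, and its counts are uncertain too. Kcna6 has 10.4 kb of its 32.3 kb body free, and 0 of its 1587 coding bases lie outside the antisense gene Gm26673, so its counts are uncertain too. Kcna3, the Kv1.3 gene, lies wholly inside the antisense gene Gm27008, was listed at 0 in all 8 libraries and was not tested. This 0 cannot be read as absence of the transcript.

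Library totals ran from 22005534 to 25080712 counts in PTU and from 21762810 to 29084071 in PTU+TH. Of 17355 genes tested, 368 (2.12%) differed between the groups by edgeR's quasi-likelihood test (called where the adjusted p was under 0.05), with 258 higher (1.49%) and 110 lower (0.634%) in PTU+TH. Among markers of GABAergic neurons, Gad1 averaged 471 CPM in PTU and 422 in PTU+TH, Gad2 427 and 458, Dlx6os1 237 and 193, and Slc32a1 14.1 and 17.8. CPM is the usual depth-normalised count, scaled here by TMM. These 4 were not called (edgeR adjusted p from 0.203 to 0.802), and Dlx1 was listed at 0, which need not mean absence of the transcript. Markers of excitatory neurons summed to 34.2 to 97.2 CPM in PTU and 42.1 to 110.6 in PTU+TH. Counts of Y-linked genes were 0 in PTU+TH mice 15 and 16 and at least 7960 in the other 6 libraries, so the presence of Y-linked counts is partly confounded with the treatment. The libraries are bulk samples, in which fewer cells of a type and less RNA per cell cannot be told apart.

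Among the Kv1 genes, 3 of the 8 tested rose in PTU+TH and 0 fell. They were the alpha gene Kcna1 and the beta genes Kcnab2 and Kcnab3, with log2 fold changes of 0.54, 0.35 and 0.40, against 1.49% of all tested genes called higher. In these 3 genes all 4 PTU+TH libraries lay above all 4 PTU libraries, which held for 4.68% of all genes tested. This rests on the same values as the calls and is not separate support for them. In 0 of the 8 did all PTU+TH libraries lie below (4.03% of all genes; 8.71% in either direction). The fitted log2 fold change was above 0 in 5 of the 8, against 48.6% of all genes. Leaving out 1 library gave from 0 to 2 of these calls. With library totals in place of TMM, with Y-linked counts as a covariate and among the 6 libraries with such counts 0 of the 3 were called, while the 3 fold changes stayed above 0 in all these fits. The other 5 tested genes (Kcna2, Kcna4, Kcna5, Kcna6 and Kcnab1) were not called in the main comparison or in any alternative run.

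**Figure D1:**
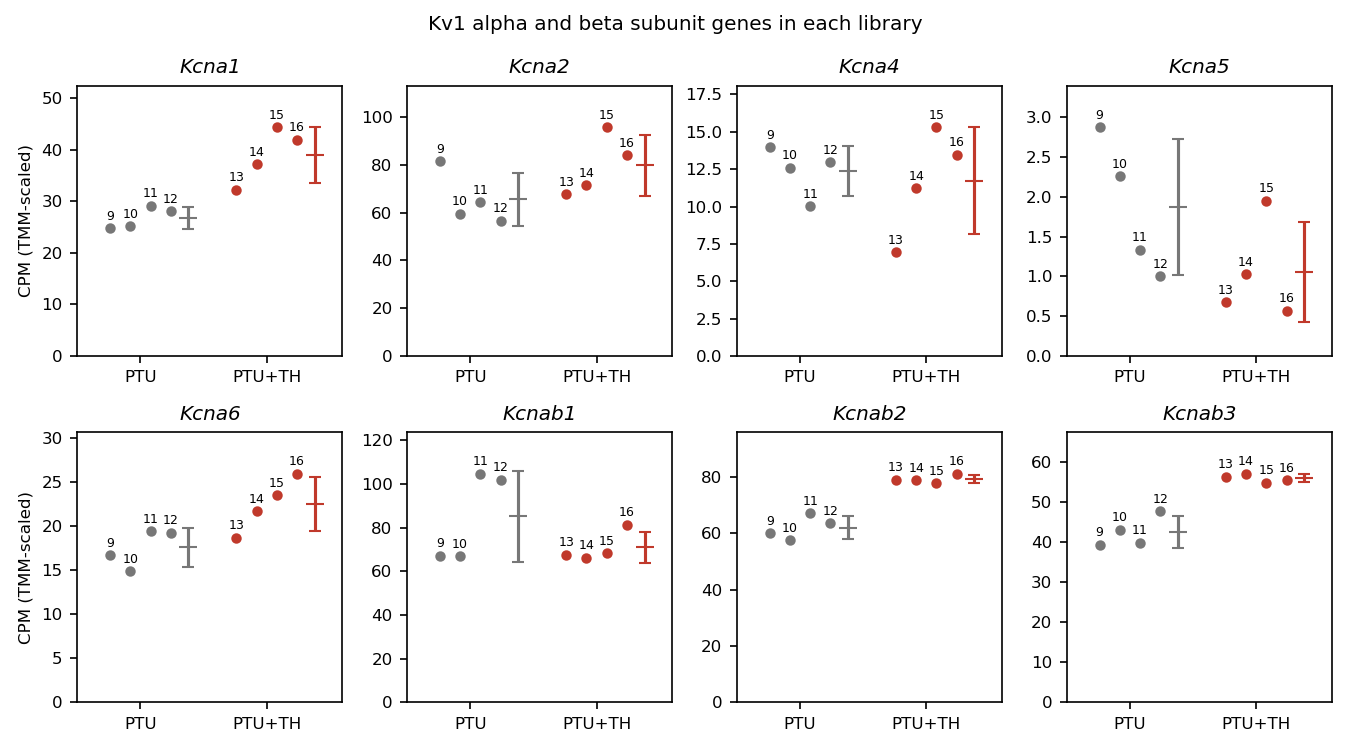
Each panel shows 1 gene, with CPM (TMM-scaled) on the y axis from 0, a point per library labelled with its mouse number, and the mean with its SD (n = 4) beside the points. Kcna1, Kcnab2 and Kcnab3 have all PTU+TH points above all PTU points, while the groups overlap in the other 5 genes.

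Among the alpha genes, Kcna1, which encodes Kv1.1, had 24.8, 25.1, 29.1 and 28.0 CPM in the PTU mice 9 to 12 and 32.3, 37.2, 44.3 and 41.9 CPM in the PTU+TH mice 13 to 16, in that order here and for the genes that follow. The groups did not overlap, and the lowest PTU+TH value was that of mouse 13. The mean rose from 26.8 ± 2.14 to 38.9 ± 5.34 CPM (SD, n = 4 each), a fold change of 1.45 (log2 fold change 0.54 with SE 0.12; adjusted p = 0.0301 by edgeR). The call was lost without PTU mouse 10 (0.0874), PTU mouse 12 (0.0617), PTU+TH mouse 14 (0.0654), mouse 15 (0.114) or mouse 16 (0.105), all edgeR adjusted p-values. Within the 6 libraries with Y-linked counts, mice 13 and 14 still lay above all 4 PTU mice, with a log2 fold change of 0.38 that was not called (edgeR adjusted p = 0.405).

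Mouse 15, the library with the highest Kcna1, also had the highest summed markers of oligodendrocytes (173 CPM against 84.0 to 112 in the other 7), astrocytes (359 against 121 to 254), microglia (30.4 against 10.0 to 15.2) and excitatory neurons (111 against 34.2 to 97.2). Without this mouse the Kcna1 log2 fold change was 0.47. Of the 5 oligodendrocyte markers 4 had a log2 fold change above 0 (median 0.68), of the 5 microglia markers 5 (median 0.63), of the 5 excitatory neuron markers 5 (median 0.12) and of the 4 astrocyte markers tested 3 (median 0.21). None of these was called, and of them only Gfap was listed at 0 throughout, which need not mean absence of the transcript. Of the 7 markers of parvalbumin cells, the class in the series title, Syt2 and Nefh were called higher, and 4 lay above 0 and 3 below (median log2 fold change 0.34). Their list also holds the channel genes Kcnc1 and Kcnc2, and Kcnc2 alone averaged 2128 CPM in PTU. The sum of the list overlapped between the groups at 2014 to 3562 CPM in PTU and 2254 to 3324 in PTU+TH. In each of the other interneuron classes 1 marker was called. The 4 tested markers of VIP cells all had a log2 fold change below 0 with Htr3a called lower, and the VIP sum did not overlap, at 199.7 to 280.6 CPM in PTU and 178.0 to 196.7 in PTU+TH. Of the 5 markers of SST cells 4 lay below 0 and Calb1 was called lower, with sums of 1112 to 1531 CPM and 897 to 1194. Of the 4 markers of LAMP5 cells 3 lay below 0 and Gabrd was called higher, with sums of 1072 to 1269 CPM and 944 to 1117. The part of all these cells in the Kv1 results was not tested.

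Kcna2, which encodes Kv1.2, the usual partner of Kv1.1 in axons, had 81.7, 59.6, 64.5 and 56.7 CPM in the PTU mice and 67.7, 71.5, 95.9 and 84.1 CPM in the PTU+TH mice. Mouse 9 lay well above the other PTU mice and inside the PTU+TH range, so the groups overlapped. The log2 fold change was 0.28 with a 95% interval from -0.01 to 0.57 (edgeR adjusted p = 0.415). It was not called in any alternative, and its size moved from 0.41 without mouse 9 (edgeR adjusted p = 0.0852) to 0.18 without mouse 15 (0.752), 0.08 with Y-linked counts as a covariate (0.947) and 0.09 among the 6 libraries with such counts (0.970).

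Kcna6, which encodes Kv1.6, had 16.7, 14.9, 19.4 and 19.3 CPM in the PTU mice and 18.7, 21.7, 23.6 and 26.0 CPM in the PTU+TH mice. Only mouse 13 fell inside the PTU range. Its unadjusted edgeR p was 0.0201, its adjusted p 0.255 and its log2 fold change 0.36 (95% interval 0.07 to 0.64). With Y-linked counts as a covariate, and among the 6 libraries with such counts, the log2 fold change was 0.20 (edgeR adjusted p = 0.773 and 0.852).

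Kcna4 encodes Kv1.4, an alpha subunit that gives a rapidly inactivating current. It had 14.0, 12.6, 10.0 and 12.9 CPM in the PTU mice and 6.96, 11.2, 15.3 and 13.5 CPM in the PTU+TH mice, a wider spread in the second group. The log2 fold change was -0.08 (95% interval -0.54 to 0.37, edgeR adjusted p = 0.942). Leaving out 1 library moved it from -0.24 (mouse 15) to 0.10 (mouse 13), and it was -0.45 with Y-linked counts as a covariate and among the 6 libraries with such counts (edgeR adjusted p = 0.565 and 0.677).

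Kcna5, which encodes Kv1.5, was the least abundant alpha gene counted, with raw counts of 79, 60, 27 and 23 in the PTU mice and 16, 30, 43 and 12 in the PTU+TH mice. Mice 9 and 10 were the highest of all, and the remaining PTU values lay inside the PTU+TH range. The log2 fold change of -0.83 had the widest interval of the family (95% interval -1.78 to 0.12, edgeR adjusted p = 0.487). It was -0.54 without mouse 9, -1.29 without mouse 15 and -1.13 with Y-linked counts as a covariate, never called. Markers of endothelium summed to 148 CPM in mouse 10, against 32.9 to 107 in the other 7 libraries, and to 52.3 CPM in mouse 9, which had the most Kcna5. In mice 9 to 12, excitatory neuron markers summed to 97.2, 93.7, 50.9 and 34.2 CPM and astrocyte markers to 222, 236, 174 and 121. Like Kcna5, both were higher in mice 9 and 10 than in mice 11 and 12. The sums for parvalbumin, SST and LAMP5 cells were lower there. The part of all these cells in the Kcna5 values was not tested.

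Beta subunits belong to the aldo-keto reductase family and assemble with Kv1 alpha subunits. Kcnab2, which encodes Kv beta 2, the main beta subunit of brain, had 60.0, 57.4, 66.9 and 63.4 CPM in the PTU mice and 78.9, 78.8, 77.6 and 81.0 CPM in the PTU+TH mice. The 4 PTU+TH libraries lay close together and above the highest PTU library, mouse 11. The mean rose from 61.9 ± 4.16 to 79.1 ± 1.43 CPM (SD, n = 4 each, fold 1.28, log2 fold change 0.35 with SE 0.08; adjusted p = 0.0385 by edgeR). The call was lost without PTU mouse 10 (0.120) or 12 (0.0899), without PTU+TH mouse 13 (0.0849), 14 (0.0963), 15 (0.0929) or 16 (0.119), all edgeR adjusted p-values. Over the 8 fits without 1 library the log2 fold change lay between 0.32 and 0.39, and it was 0.35 in the 6 libraries with Y-linked counts (edgeR adjusted p = 0.263).

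Kcnab3, the gene of Kv beta 3, had 39.3, 43.1, 39.9 and 47.8 CPM in the PTU mice and 56.4, 57.1, 54.9 and 55.5 CPM in the PTU+TH mice. As for Kcnab2, the PTU+TH values were close together and lay above every PTU value. The mean rose from 42.5 ± 3.89 to 56.0 ± 0.97 CPM (SD, n = 4 each, fold 1.32, log2 fold change 0.40 with SE 0.09; adjusted p = 0.0374 by edgeR). The call was lost without PTU mouse 9 (0.0523), 10 (0.0873) or 11 (0.0979), and without PTU+TH mouse 13 (0.0915), 14 (0.107), 15 (0.0920) or 16 (0.0968), all edgeR adjusted p-values. Over the 8 fits without 1 library the log2 fold change ran from 0.37 to 0.46, and among the 6 libraries that hold Y-linked counts it was 0.42 (edgeR adjusted p = 0.241). The overlapping gene Kcnab3os was listed at 0 in all 8 libraries. It lies wholly inside Kcnab3, so this 0 cannot be read as absence of its transcript.

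Kcnab1, whose product Kv beta 1 confers rapid inactivation on Kv1 channels, did not follow the other beta genes in its fitted direction. It had 67.2, 67.1, 104.8 and 102.0 CPM in the PTU mice and 67.7, 66.4, 68.5 and 81.5 CPM in the PTU+TH mice. Mice 9 and 10 sat at the PTU+TH level and mice 11 and 12 far above it. The log2 fold change was -0.26 (95% interval -0.59 to 0.07, edgeR adjusted p = 0.541), and it was -0.36 without mouse 9 or mouse 10, -0.15 without mouse 11 and -0.17 without mouse 12, never called. The summed markers of parvalbumin cells, mostly Kcnc2, split the PTU mice in the same way, at 2014 CPM for mouse 9, 2184 for mouse 10, 3562 for mouse 11 and 3157 for mouse 12. So did the sum for SST cells, at 1196, 1112, 1531 and 1318 CPM, the sum for LAMP5 cells, and the listed genes Dlg2, Ank3, Kcnb2 and Kcnd2. These were named after their values were seen, and the split was not particular to parvalbumin markers. The sums for VIP cells, excitatory neurons, oligodendrocytes, astrocytes and endothelium split the other way, with mice 9 and 10 above mice 11 and 12. For excitatory neurons they were 97.2, 93.7, 50.9 and 34.2 CPM. The part of these cells in the Kcnab1 values was not tested. AC113458.1, which shares the start of the gene, stood at 14.9 ± 3.76 and 12.8 ± 1.24 CPM (SD, n = 4 each).

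**Figure D2:**
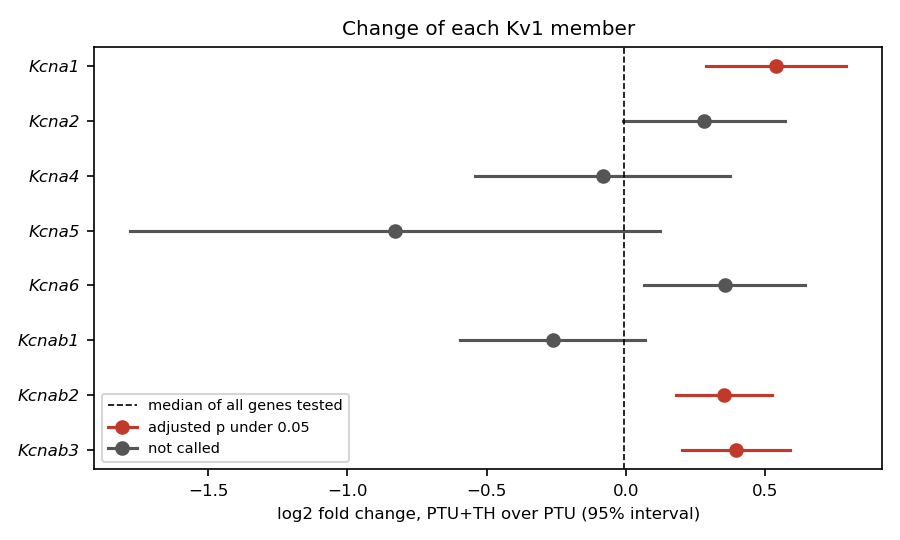
Points give the log2 fold change of PTU+TH over PTU for each tested member and lines its 95% interval, on the x axis, with called members in red and the median of all genes tested as a dashed line. Kcna1, Kcnab2 and Kcnab3 have intervals above 0 and are called, Kcna6 has an interval above 0 but is not called after adjustment, and Kcna5 has the widest interval.

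Whether Kcna1 changed more than the other members was tested directly with the ratio of Kcna1 to each of them within a library, over 7 pairs. The log2 ratio was higher in PTU+TH for all 7, by 0.13 (to Kcnab3) to 1.41 (to Kcna5). Kcna1 had the highest log2 fold change of the tested members, so this shared direction was set by taking Kcna1 as the numerator. It is no separate evidence. No pair passed after adjustment over the pairs (exact permutation test, two-sided, adjusted p from 0.1 to 0.286). The difference to Kcna2 fell from 0.25 to 0.10 without mouse 9, that to Kcnab2 from 0.18 to 0.10 without mouse 15, and that to Kcnab3 was 0.06 without mouse 15, 0.20 without mouse 11 and 0.22 without mouse 13. The lowest p was that of the ratio to Kcnab1, at 0.275 to 0.375 in PTU and 0.476 to 0.647 in PTU+TH. Its exact permutation p of 0.0286 is the smallest that 70 arrangements allow. The ratio to Kcna2 was 0.418 ± 0.0819 in PTU and 0.489 ± 0.0254 in PTU+TH (SD, n = 4 each; exact permutation p = 0.114). With so few arrangements, an adjusted p under the threshold would have needed most of the pairs at that smallest p, so these tests could hardly have passed and say little about whether the responses differ.

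Levels were compared between genes per length, as CPM per kb of gene body free of other genes. In PTU, Kcnab3 stood highest at 9.48 ± 0.866, followed by Kcna2 at 4.74 ± 0.809 and Kcna1 at 4.47 ± 0.358 (SD, n = 4 each). Kcna6 (1.70 ± 0.209), Kcnab1 (1.68 ± 0.412) and Kcna4 (1.58 ± 0.213) came next, then Kcnab2 (0.756 ± 0.0507) and Kcna5 (0.653 ± 0.299). The ranges of Kcna1 and Kcna2 overlapped, as did those of Kcna6, Kcnab1 and Kcna4 and those of Kcnab2 and Kcna5. In PTU+TH, Kcnab3 stood at 12.5 ± 0.216, Kcna1 at 6.50 ± 0.892 and Kcna2 at 5.76 ± 0.922, and the ranges of Kcna1 and Kcna2 overlapped again. Kcna6 followed at 2.17 ± 0.296, then Kcna4 at 1.49 ± 0.458, Kcnab1 at 1.40 ± 0.138, Kcnab2 at 0.965 ± 0.0175 and Kcna5 at 0.370 ± 0.220.

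The order depended on the length used. Exon length here counts all exon bases, also those shared with other genes, and only 379 of 5945 exon bases of Kcna6 and 2002 of 2865 of Kcnab3 are free, so exon values of different genes are on unlike bases. Per kb of exon, the mean of Kcna1 stood above that of Kcna2, at 5.60 against 5.51 CPM per kb in PTU and 8.15 against 6.70 in PTU+TH. Their ranges overlapped in both groups. Per kb of exon, Kcnab2 was the second highest member in both groups, at 11.1 ± 0.745 and 14.2 ± 0.257 CPM per kb (SD, n = 4 each), because its 87.1 kb body holds only 5578 exon bases. Among the 5 alpha genes counted, Kcna1 made up 28.7% to 37.1% of the summed level per free kb in the PTU libraries and 38.5% to 40.8% in the PTU+TH libraries. Kcna2 made up 32.4% to 40.8% and 33.8% to 37.0%. These shares are a description of the same counts and leave out Kcna3. The free bodies are also unlike. The 5988 free bases of Kcna1 hold 4780 exon bases, while the 10355 of Kcna6 hold 379. Levels and shares per free kb are therefore not relative abundances of the transcripts.

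**Figure D3:**
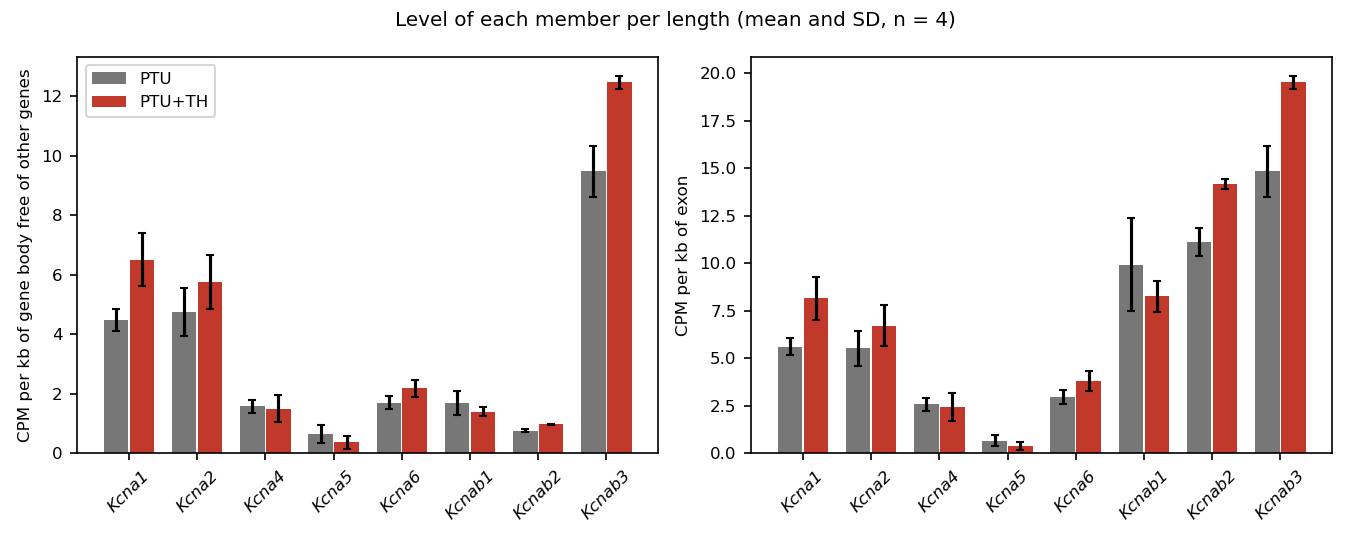
Bars give the mean level of each member with its SD (n = 4) in PTU and PTU+TH, as CPM per kb of gene body free of other genes on the left and per kb of exon on the right, with both axes from 0. Kcnab3 is highest in both panels, Kcna1 and Kcna2 are the highest alpha genes in both, and Kcnab2 moves from near the bottom on the left to second on the right.

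The proteins around Kv1 channels were described with a list of 23 genes, of which 20 were tested. Of these, 2 rose (Lgi3 and Cntn2; 1.49% of all genes did) and 0 fell (0.634% of all genes), 16 had a log2 fold change above 0 (48.6% of all genes) and 4 below, and the median was 0.06 against -0.01 over all genes tested. Lgi3 encodes a secreted protein of the LGI family, whose members bind ADAM22 and ADAM23. It had 61.6, 60.7, 60.0 and 57.5 CPM in the PTU mice and 91.2, 85.0, 99.99 and 89.8 CPM in the PTU+TH mice, with no overlap (log2 fold change 0.61 with SE 0.08; adjusted p = 0.00149 by edgeR), and was called in all alternatives run. Cntn2 encodes TAG-1, an adhesion molecule that holds Kv1 channels at the juxtaparanode together with Caspr2. It had 59.2, 58.4, 64.2 and 65.1 CPM in the PTU mice and 86.5, 89.8, 92.0 and 79.7 CPM in the PTU+TH mice (log2 fold change 0.50 with SE 0.08; adjusted p = 0.00672 by edgeR). It lost its call only in the 6 libraries with Y-linked counts (edgeR adjusted p = 0.0741). Both genes were highest in mouse 15, the library with the highest sums of oligodendrocyte, astrocyte and microglia markers given above. Without it the log2 fold changes were 0.57 for Lgi3 and 0.47 for Cntn2, both still called (edgeR adjusted p = 0.00765 and 0.0317).

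The other partners were not called by edgeR in the main comparison. Log2 fold changes ran from -0.05 to 0.22 in the 4 MAGUK scaffold genes (Dlg1 to Dlg4), and Cntnap2, the Caspr2 gene, had 0.03. Lgi1 and its receptors Adam22 and Adam23 had -0.21, 0.01 and -0.05. In the axon initial segment and paranode group, values ran from -0.14 (Nrcam) to 0.40 (Cntnap1, the Caspr gene, edgeR adjusted p = 0.0939). Cntnap1 was called by DESeq2 and by an edgeR fit that set mice 9, 10, 13 and 14 apart from the other 4 by a covariate, chosen after seeing the data. Cntnap2 split the PTU mice as Kcnab1 did, with 2303, 2704, 5036 and 4611 CPM. The remaining Kv1 alpha genes, Kcna7 and Kcna10, averaged under 0.3 CPM in both groups and were not tested.

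Among 18 other voltage-gated potassium channel genes, of the Kv2, Kv3 and Kv4 families and the silent subunits, 17 were tested and 0 were called by edgeR, against 2.12% of all genes. At an unadjusted p under 0.05 there were 4 (Kcnc1, Kcnc4, Kcng3 and Kcns2), against 12.8% of all genes, and DESeq2 called 1, Kcng3, with a lower level in PTU+TH. Their median log2 fold change was -0.01, and 8 lay above 0 and 9 below. Kcnc1 and Kcnc4, which encode Kv3 channels, differed by 0.34 and 0.35 on the log2 scale and missed the threshold (edgeR adjusted p = 0.228 and 0.226). On simulated data the test found 6% of 200 genes given a log2 change of 0.5, so changes of that size could be missed. Whether the Kv1 genes differ in response from these channels was not tested.

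The genes whose 8 library values were most like those of a called member were sought among 9318 other genes whose mean was 10 CPM or more, leaving out gene models named only by a Gm number or a Rik name. Likeness was the root mean square difference of log2 CPM after each gene's mean was removed. For Kcna1 the nearest 5 were Prkcb, Klf3, Kcnk1, Daam2 and Atp2b2, with differences of 0.07 to 0.09 against a median of 0.35 over all genes compared. For Kcnab2 they were Man1a2, Ncoa3, Epb41l2, Usp6nl and Dexi (0.06 to 0.07, median 0.25). For Kcnab3 they included Sh3glb1, Pptc7, Ece1 and Zfyve16 (0.05 to 0.07, median 0.27). Prkcb, a protein kinase C gene, went from 301 to 435 CPM, and Kcnk1, which encodes a two-pore-domain potassium channel, from 19.6 to 27.6 CPM.

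Promoter windows of RefSeq (GRCm38.p6, 250 bases before to 50 after a start) were at hand for 7 of the 9 genes, as 11 windows. Kcna1 and Kcnab3 were not among them, so Kcnab2 was the only called member searched. The half-site AGGTCA, which thyroid hormone receptors are known to bind, was searched on both strands and occurred in 0 of the 11, against 16.3% of 32851 windows. The direct repeat of this half-site with a spacer of any 4 bases, each match of which also holds the half-site, also occurred in 0 of the 11, and in 5 windows in all. These letters are not in these windows, and nothing follows from it about receptor binding elsewhere.

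**Figure D4:**
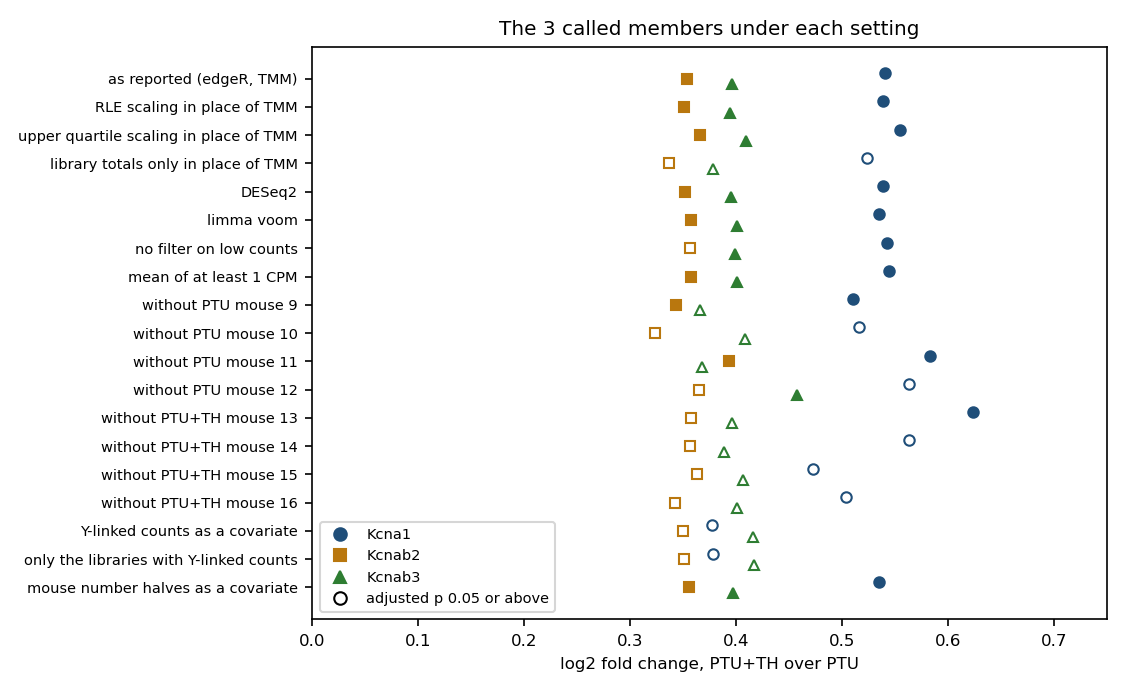
For each setting on the y axis, markers give the log2 fold change of Kcna1, Kcnab2 and Kcnab3 on the x axis, filled where the adjusted p was under 0.05 and open otherwise. The fold changes lie between 0.32 and 0.62 throughout, Kcna1 falls to 0.38 in both settings that use Y-linked counts, and most fits without 1 library are open.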

How the data were processed

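Nuclear RNA of sorted cortical GABAergic neurons was measured in 8 libraries, 1 per mouse. The authors deposited 1 table per library, with raw read counts by gene symbol. Per the labels' protocols, cDNA was made with SMART-Seq v4, libraries with Nextera XT, and single-end reads on a NextSeq instrument. Bowtie2 2.5.3 and the builds mm10 and GRCm38 are named in the submitters' processing notes. The counting program and its use of strand and introns were not given in the sources used here.

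Groups came from the sample titles. Counts were tested with edgeR 4.0.16 (R 4.3.3): filterByExpr, TMM scaling, the robust quasi-likelihood test with the group as the only term, and Benjamini-Hochberg adjustment over 17355 genes, with a call at an adjusted p under 0.05. Ratios were compared with exact permutation tests. Gene bodies, exons and coding sequences came from GENCODE M21, and promoters from RefSeq. Identity of proteins was not computed, as no protein table was used here; coding sequences took its place.

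The members, the lists and the rule for named genes were chosen with earlier results of these data known. All 9 members are named, with the called genes of both lists and the 5 genes most like each called member, apart from some results, on listed markers too, that are not reported here. Alternatives covered scaling, tool (DESeq2 1.42.0, limma 3.58.1), filter, each library left out, Y-linked counts, and mouse number (9, 10, 13 and 14 against 11, 12, 15 and 16) as a covariate, the last chosen after seeing the data. On simulated data for PTU+TH against PTU, the test found 61.5% of 200 genes given a log2 change of 1, beside 6 false calls (17019 genes), and 6% of 200 given a change of 0.5, beside 2 false calls (17056 genes). With 0 genes changed it made 0 calls (17046 genes). Between libraries of a group, the chi-square per degree of freedom of the counts was 8.38 to 72.6, above sampling noise.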

Additional observations from a re-analysis of the deposited data

Results flagged for a closer look

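In the 8 tested Kv1 genes, 16 sets of 4 values (a gene in a group) were searched for a single library far from the other 3, where chance gives about 5% of sets, or 0.8. There was 1, the beta gene Kcnab1 in the PTU+TH group. Mouse 16 reached 81.5 CPM, while the other 3 mice had 66.4 to 68.5, so that the gap made up 0.859 of the whole range.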

How the results depend on the processing

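No paired analysis was possible because no mouse number occurs in both groups. All p-values here are adjusted and from edgeR unless another tool is named. Library totals in place of TMM gave 0.0512 for Kcna1, 0.0749 for Kcnab2 and 0.116 for Kcnab3, so 0 members were called. With the presence of Y-linked counts as a covariate they were 0.260, 0.155 and 0.127, and among the 6 libraries with such counts 0.405, 0.263 and 0.241, with 0 members called in both. Without a filter on low counts Kcnab2 had 0.0624. Leaving out 1 library gave 0.0199 to 0.114 for Kcna1, 0.0419 to 0.120 for Kcnab2 and 0.0338 to 0.107 for Kcnab3, and 0 to 2 members called. The log2 fold changes of the 3 stayed above 0 in all 18 alternatives. Kcna4 turned to a log2 fold change of 0.10 without mouse 13 (adjusted p = 0.897), in a range of 0.832 to 0.985 over the libraries left out. Cntn2 had 0.0741 among the libraries with Y-linked counts, where 1 partner gene was called. Of the other channels, DESeq2 called 1 (Kcng3), the fit with mouse number as a covariate 1 (Kcnc1), and leaving out 1 library gave 0 to 3 (3 without mouse 9: Kcnc4, Kcng3 and Kcns2). Over all genes, DESeq2 called 756 (464 higher, 292 lower), the Y-linked covariate 129 (106 and 23), the libraries with Y-linked counts 58 (52 and 6), the mouse-number covariate 642 (428 and 214), and leaving out 1 library 182 to 499. Per kb of exon in place of free gene body, the mean over all libraries was 6.87 for Kcna1 (5.49 per free kb), 2.497 for Kcna4 (1.53), 3.37 for Kcna6 (1.94), 9.09 for Kcnab1 (1.54), 12.6 for Kcnab2 (0.860) and 17.2 for Kcnab3 (11.0). The causes were not tested. Kcna5 had the fewest counts of the tested members, 12 to 79 a library.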
